A study of Homo sapiens with 38 samples.

Results

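The 50 protein-coding genes whose symbols begin with PSMA to PSMG followed by a digit were taken from the 20033 protein-coding genes of GENCODE 44 on the hg38 build, and their promoters were examined in 19 deposited lists of CUT&RUN peaks. Of these 50 genes, 48 encode proteasome subunits, assembly factors, activators or an inhibitor. PSMC3IP and PSME3IP1 met the symbol rule but belong to none of these classes, and are called members by symbol only. A gene was called occupied in a list when at least 1 base of a peak lay within 1000 bp of any of its annotated transcript starts. CUT&RUN maps a protein by cutting the DNA around an antibody bound to it in permeabilized cells, and a peak is a stretch of DNA with an excess of such fragments, called here against merged control replicates.

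The proteasome is the protease that degrades ubiquitin-tagged proteins. Its barrel-shaped 20S core holds the proteolytic sites inside rings of alpha and beta subunits, and the 19S particle, made of a base with ATPases and a lid, recognizes and unfolds substrates. Interferon induces the catalytic subunits PSMB8, PSMB9 and PSMB10, which replace their constitutive counterparts in the immunoproteasome, and the activator subunits PSME1 and PSME2. When proteasomes are impaired, the transcription factor NFE2L1 raises transcription of the subunit genes together. Sp1, the factor profiled here, binds GC-box sequences (GGGCGG) in many promoters through its zinc fingers.

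All 38 samples came from U2OS osteosarcoma cells in which endogenous Sp1 carries a V5-Halo tag, with 2 replicates for each pairing of a line with an antibody (19 pairings). The parental line (CTRL) had no transgene but is labelled with the same induction and sort, and each derived line also expressed a SNAPf- and FLAG-tagged construct from a doxycycline-inducible cassette at AAVS1 (1 μg/ml for 36 h before sorting for expressing cells, then a further 36 h). The constructs were full-length Sp1 (Sp1 WT), Sp1 lacking its N-terminal intrinsically disordered region (Sp1 DBD), the disordered region of EWS on the Sp1 DNA-binding domain (EWS IDR-Sp1 DBD), the CTCF DNA-binding domain with or without the Sp1 disordered region (Sp1 IDR-CTCF DBD and CTCF DBD), the bacterial LacI repressor with or without it (Sp1 IDR-LacI and LacI), an Sp1 whose DNA-binding domain is cut short to a lone finger (Sp1 DBD Mutant) and a nuclear SNAPf tag (SNAPf-NLS). Anti-FLAG therefore reported the construct and anti-V5 the endogenous Sp1 that every line retains, so a construct in a FLAG list was read in the presence of tagged endogenous Sp1. Each list was made by the authors from both replicates at an irreproducible discovery rate of at most 0.1 and has no replicate of its own, so counts below carry no error and no test was made. Peak lists hold no expression values, so cell identity could not be checked against marker genes.

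Sp1 WT occupied 22 of the 50 promoters (44%), against 23.7% of all protein-coding genes. The 22 genes came from every part of the complex: 3 of 7 genes of the alpha ring, 3 of 7 of the beta ring, 3 of 5 tissue and immune forms of core subunits, 2 of 6 ATPases and 1 of 3 non-ATPase subunits of the 19S base, 3 of 8 lid subunits, 3 of 7 assembly factors, and 3 of 5 activators and inhibitors, beside PSME3IP1. Counting only the 48 genes of the complex gave 21 (43.8%). Across all 19 lists, 26 of the 50 genes were occupied at least once (52.0%, against 29.6% of all protein-coding genes) and 24 never were.

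**Figure D1:**
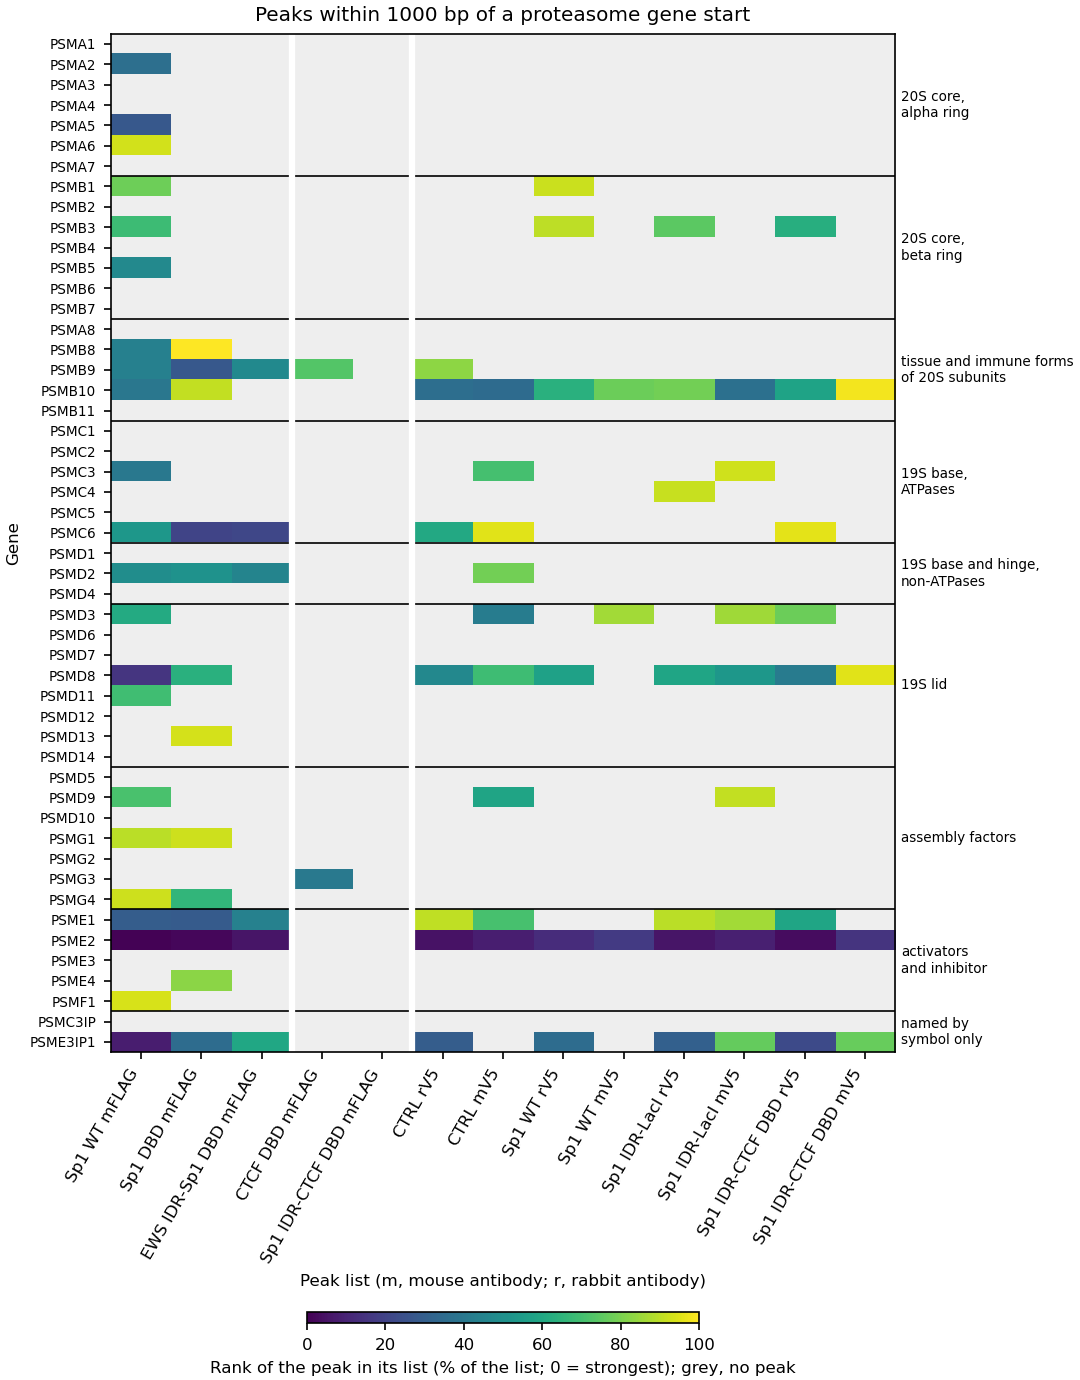
Peaks within 1000 bp of a transcript start of each of the 50 genes (rows, grouped by subcomplex) in the 13 lists that hold a Sp1 or CTCF zinc-finger construct or endogenous Sp1 (columns; m, mouse antibody; r, rabbit antibody). Color gives the rank of the strongest peak as a percentage of its list, with 0 the strongest, and grey marks no peak; the row of PSME2 is dark in 11 lists, and the 14 genes of the 20S core are grey in the Sp1 DBD and EWS IDR-Sp1 DBD columns.

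Sequences of 5 genes of the complex found in 6 or more lists show where the GC boxes lie (PSME3IP1, in 9 lists, is a member by symbol only and is not shown). PSME2 (11 lists), PSME1 (8) and PSMC6 (6) are shown as the 250 bases before the RefSeq start, on the strand of the gene and 5′ to 3′ (GRCh38.p14). For PSMD8 (9 lists) and PSMB10 (10 lists), whose RefSeq promoter windows held no GC box, the stretch from 100 bases before to 100 after a peak summit is shown instead, on the plus strand of hg38, with the Sp1 WT summit for PSMD8 and the summit in the CTRL mouse anti-V5 list for PSMB10. Capitals mark GGGCGG or its complement CCGCCC. The PSME2 stretch does not reach the summits of Sp1 WT (24146954), Sp1 DBD (24146908) or EWS IDR-Sp1 DBD (24146982). Within 100 bp of these summits lay 1, 1 and 0 GC boxes, in that order.
PSME2, chr14:24146611-24146860, minus strand: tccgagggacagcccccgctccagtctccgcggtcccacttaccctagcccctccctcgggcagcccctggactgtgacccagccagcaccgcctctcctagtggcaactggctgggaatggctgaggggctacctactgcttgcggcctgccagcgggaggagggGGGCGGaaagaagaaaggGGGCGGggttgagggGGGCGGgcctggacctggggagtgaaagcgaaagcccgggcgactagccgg
PSME1, chr14:24135944-24136193, plus strand: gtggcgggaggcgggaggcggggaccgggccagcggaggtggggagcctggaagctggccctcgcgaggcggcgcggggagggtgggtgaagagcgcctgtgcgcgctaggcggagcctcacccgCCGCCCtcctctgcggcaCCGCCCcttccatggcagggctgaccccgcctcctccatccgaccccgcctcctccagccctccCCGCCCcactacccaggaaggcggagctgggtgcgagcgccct
PSMC6, chr14:52706950-52707199, plus strand: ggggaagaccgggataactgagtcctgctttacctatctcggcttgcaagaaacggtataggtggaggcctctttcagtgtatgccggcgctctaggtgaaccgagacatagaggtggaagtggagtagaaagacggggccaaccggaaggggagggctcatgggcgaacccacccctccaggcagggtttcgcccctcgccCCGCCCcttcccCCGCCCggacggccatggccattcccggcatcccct
PSMD8, chr19:38374580-38374780, plus strand: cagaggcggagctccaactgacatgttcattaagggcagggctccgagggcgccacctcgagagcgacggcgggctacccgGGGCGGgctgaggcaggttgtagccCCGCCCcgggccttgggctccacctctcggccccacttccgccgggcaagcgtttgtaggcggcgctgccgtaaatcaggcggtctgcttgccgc
PSMB10, chr16:67935701-67935901, plus strand: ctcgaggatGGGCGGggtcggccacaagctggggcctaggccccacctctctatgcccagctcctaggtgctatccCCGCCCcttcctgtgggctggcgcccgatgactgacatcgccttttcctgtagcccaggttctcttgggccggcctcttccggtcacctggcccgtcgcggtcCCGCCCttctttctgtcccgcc

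PSME2, which encodes the beta subunit of the PA28 activator that opens the core, had the strongest peak of the group. Its Sp1 WT peak ranked 23 of 5151 by −log10 p-value, with values of 94.3 and 128.3 in the replicates given first and second to the reproducibility analysis. The peak ranked 53 of 3277 for Sp1 DBD and 144 of 2535 for EWS IDR-Sp1 DBD. In the 8 anti-V5 lists, the peak at this promoter ranked between 3.45% (Sp1 IDR-CTCF DBD, rabbit) and 17% (Sp1 WT, mouse) of the way down the list, and no other member's peak ranked above it in any of the 11 lists that held it. The Sp1 WT peak spanned 3233 bp (chr14:24144711-24147943), and its summit lay 344 bp upstream of the canonical PSME2 start, nearer to a start of RNF31, a ubiquitin ligase subunit transcribed in the opposite direction. The data therefore place the peak at a promoter shared by both genes, and when each peak was credited only to the gene with the nearest start, PSME2 was lost from the Sp1 WT, Sp1 DBD and EWS IDR-Sp1 DBD lists and from both CTRL anti-V5 lists.

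PSME1, the alpha subunit of the same activator, lies near PSME2 on chromosome 14 and had a peak of its own. It ranked 1512 of 5151 for Sp1 WT (−log10 p-values 26.0 and 40.3), 943 of 3277 for Sp1 DBD and 1112 of 2535 for EWS IDR-Sp1 DBD. Endogenous Sp1 reached it in 5 of 8 anti-V5 lists, at ranks from 58.6% to 90.5%. The Sp1 WT summit was 37 bp upstream of the canonical start, within 100 bp of 3 GC boxes. Among the remaining genes of this class, PSME4, which encodes the nuclear activator PA200, had a peak only in the Sp1 DBD list (rank 2709 of 3277), PSMF1, the inhibitor PI31, only in the Sp1 WT list (rank 4833 of 5151), and PSME3, the nuclear PA28 gamma activator, in none.

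Among the tissue and immune forms of the core, PSMB10 was occupied in 10 lists, PSMB9 in 5 and PSMB8 in 2, whereas PSMA8 (testis) and PSMB11 (thymus) were in none. PSMB10 was the only member beside PSME2 present in all 8 anti-V5 lists. The share of members in all 8 was thus 4%, no higher than the 4.22% of all protein-coding genes. The ranks of PSMB10 in those lists ran from 35% (CTRL, mouse) to 98.3% (Sp1 IDR-CTCF DBD, mouse). The −log10 p-values of its Sp1 WT peak were 21.8 and 51.4. The Sp1 WT summit lay 1001 bp downstream of the canonical PSMB10 start, in an intron of that transcript and 54 bp from another annotated start, and the summits of the 8 anti-V5 lists lay between 1045 and 1073 bp downstream of it. The canonical start itself was not under a peak: the Sp1 WT peak ended at 67936254 on chromosome 16, and the RefSeq promoter window began at 67936801.

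PSMB8 and PSMB9 lie side by side in the major histocompatibility complex on chromosome 6, and the lists marked different places there. Sp1 WT had a single peak in the interval, at the PSMB8 starts (chr6:32843933-32844969, rank 2234 of 5151, −log10 p-values 20.7 and 28.4). PSMB9 counted as occupied by Sp1 WT only because annotated upstream transcripts of PSMB9 begin there, 9356 and 10056 bp before its canonical start, and with canonical transcripts alone Sp1 WT lost PSMB9. The promoter that PSMB9 shares with TAP1, the antigen peptide transporter, carried a peak for Sp1 DBD (rank 903 of 3277), EWS IDR-Sp1 DBD (1203 of 2535), CTCF DBD (475 of 649) and endogenous Sp1 in CTRL cells with the rabbit antibody (1650 of 1987). Its summits lay between 223 and 298 bp upstream of the canonical PSMB9 start. The Sp1 WT list and the other 7 anti-V5 lists held no peak there. Sp1 DBD also had a weak peak at PSMB8 (rank 3271 of 3277).

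**Figure D2:**
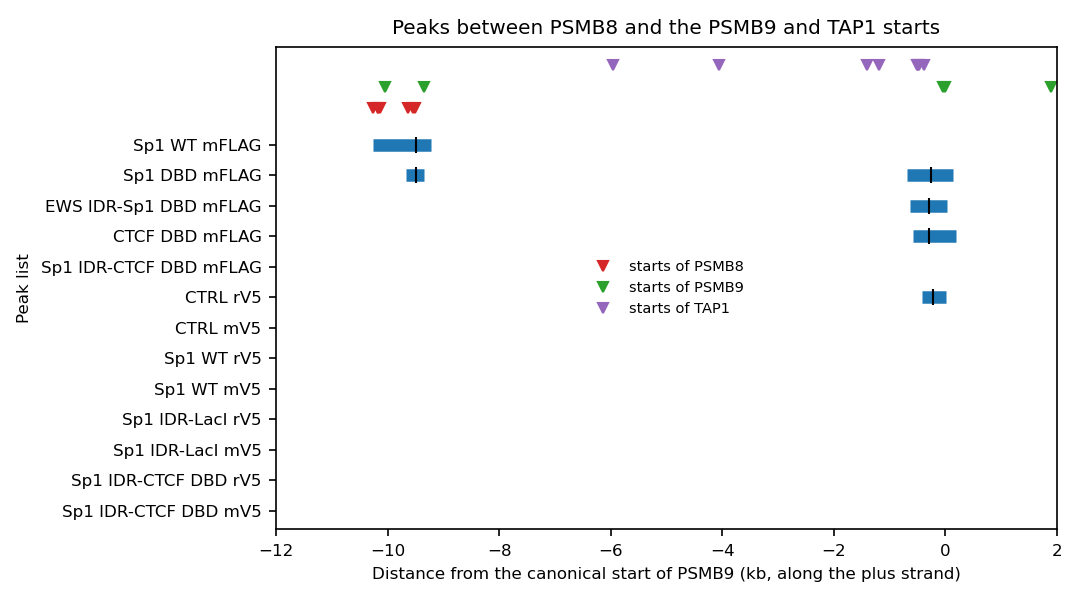
Peaks (blue bars, summits as black ticks) of 13 lists in the interval from PSMB8 to PSMB9, plotted as distance in kb from the canonical start of PSMB9; triangles mark annotated starts of PSMB8, PSMB9 and TAP1. Sp1 WT has its peak at the PSMB8 starts, while 4 lists have a peak just upstream of the canonical PSMB9 start.

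All 5 interferon-inducible genes (PSMB8, PSMB9, PSMB10, PSME1 and PSME2) were thus occupied by Sp1 WT (background 23.7%) and by Sp1 DBD (background 16.1%), compared with 17 of the other 45 members (37.8%) for Sp1 WT and 8 of 45 (17.8%) for Sp1 DBD. EWS IDR-Sp1 DBD occupied 3 of the 5 and 3 of the other 45 (6.67%), against a background of 11.1%. The anti-V5 lists held 2 to 4 of the 5, against backgrounds of 6.81% to 11.1%. PSMB8 and PSMB10 were lost from Sp1 DBD at a discovery rate of at most 0.05 and at equal list length, which left 3 of 5. When each peak was credited only to the gene with the nearest start, PSMB9 and PSME2 were lost from Sp1 WT and from Sp1 DBD, which left 3 of 5 for each. The same genes were lost from EWS IDR-Sp1 DBD, which left PSME1 (1 of 5). At a discovery rate of at most 0.01, EWS IDR-Sp1 DBD kept only PSME2 (1 of 5). This grouping was noticed after the values were seen, and no test was made of it. PSMB9 counts for Sp1 WT in the way given above, and PSME2 shares its promoter.

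In the constitutive 20S core, Sp1 WT occupied 6 of 14 genes (42.9%, background 23.7%), PSMA2, PSMA5, PSMA6, PSMB1, PSMB3 and PSMB5, the last of which encodes the chymotrypsin-like catalytic subunit. Sp1 DBD (background 16.1%) and EWS IDR-Sp1 DBD (background 11.1%) occupied none of the 14, in shorter lists. When Sp1 WT was limited to the 2535 strongest peaks it kept PSMA2, PSMA5 and PSMB5 (3 of 14), and at a discovery rate of at most 0.01 it kept PSMA5 (1 of 14). In the anti-V5 lists, PSMB1 was found in 1 and PSMB3 in 3, all with the rabbit antibody, which made 2 of 14 (14.3%) against 15.1% of all genes in any anti-V5 list. The strongest core peaks for Sp1 WT were at PSMA5 (rank 1410, −log10 p-values 27 and 36.4) and PSMA2 (rank 1884, 24.1 and 22.8). The weakest was at PSMA6 (rank 4800, 9.7 and 18). PSMA2 and PSMB1 share the peak with a neighbor, and the other 4 do not: the PSMA2 summit was nearer to a start of MRPL32, a mitochondrial ribosomal protein gene, and the PSMB1 summit, 765 bp upstream of PSMB1, was nearer to TBP, the TATA-binding protein gene. PSMA1, PSMA3, PSMA4, PSMA7, PSMB2, PSMB4, PSMB6 and PSMB7 were in no list.

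In the 19S particle, Sp1 WT occupied 6 of 17 genes (35.3%, background 23.7%), Sp1 DBD 4 (23.5%, background 16.1%), and EWS IDR-Sp1 DBD 2 (11.8%, background 11.1%). PSMC6 (an ATPase of the base) and PSMD2 (the scaffold of the base) were the pair found in all 3 lists. PSMC6 ranked 2724 of 5151 for Sp1 WT, 673 of 3277 for Sp1 DBD and 536 of 2535 for EWS IDR-Sp1 DBD, a higher position in the lists of the constructs without the Sp1 disordered region. PSMD2 ranked near the middle in each (2524, 1674 and 1148). Ranks depend on what else a list holds, and the depth behind the lists is not known here.

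PSMD8, a lid subunit, was in 9 lists: Sp1 WT (rank 792, −log10 p-values 36.6 and 50.9), Sp1 DBD (rank 2076) and 7 of 8 anti-V5 lists at ranks from 41.6% to 95.6%, but not EWS IDR-Sp1 DBD. Its summits fell in the first coding exon of the canonical transcript, 50 to 109 bp after the canonical start. PSMD3, another lid subunit, was in the Sp1 WT list (rank 3155, 15.9 and 42.2) and 4 anti-V5 lists but in neither list of an Sp1 DBD construct. PSMD11, a further lid subunit, appeared for Sp1 WT alone (rank 3576), and PSMD13 for Sp1 DBD alone (rank 3070 of 3277), at a promoter shared with SIRT3. PSMC3, an ATPase of the base, was in the Sp1 WT list (rank 2069) and 2 anti-V5 lists. PSMC4, also an ATPase, was the only member found in an anti-V5 list and not in the Sp1 WT list: its single peak, in Sp1 IDR-LacI cells with the rabbit antibody, ranked 1945 of 2126 (−log10 p-values 10.0 and 20.1). PSMC1, PSMC2, PSMC5, PSMD1, PSMD4, PSMD6, PSMD7, PSMD12 and PSMD14 were in no list.

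Among assembly factors, which guide the rings and the base together and leave the finished particle, Sp1 WT occupied PSMD9, PSMG1 and PSMG4. PSMG1 and PSMG4 were found again for Sp1 DBD, and PSMD9 in 2 anti-V5 lists. All 3 peaks were in the lower part of the Sp1 WT list, at ranks 3677, 4628 and 4749. PSMD5, PSMD10 and PSMG2 were in no list. PSME3IP1, a member by symbol only, had the second strongest Sp1 WT peak of the group (rank 414, −log10 p-values 47.9 and 59.3) and was in 9 lists, at a promoter shared with RSPRY1, whose start was nearer to the summit. PSMC3IP was in none.

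The members reached by the constructs without the Sp1 disordered region were mostly members that Sp1 WT also reached. Sp1 DBD occupied 13 members (26.0%, against 16.1%), and 11 of these 13 (84.6%) were also Sp1 WT genes, compared with 80.4% of all genes occupied by Sp1 DBD. Those 11 were 50.0% of the Sp1 WT members, compared with 54.5% among all genes. EWS IDR-Sp1 DBD occupied 6 members (12%, against 11.1%), PSMB9, PSMC6, PSMD2, PSME1, PSME2 and PSME3IP1, and all 6 were in both other lists, compared with 80.5% (Sp1 WT) and 80.8% (Sp1 DBD) of all EWS IDR-Sp1 DBD genes. For PSMB9 the Sp1 WT peak was the separate one at PSMB8. The 11 Sp1 WT members also occupied by Sp1 DBD had a median rank of 2234 in the Sp1 WT list, and the 11 that were not had 3530. When the 3 lists were limited to the 2535 strongest peaks each, Sp1 WT occupied 12 members (24%, against 12.8% of all genes). Sp1 DBD then occupied 8 (16%, against 12.8%) and EWS IDR-Sp1 DBD 6 (12%, against 11.1%). The gap in member counts between Sp1 WT and the other lists was smaller at equal length. The share of members stayed higher for Sp1 WT than for Sp1 DBD, at the same share of all genes. Whether list length accounts for the gap was not tested.

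**Figure D3:**
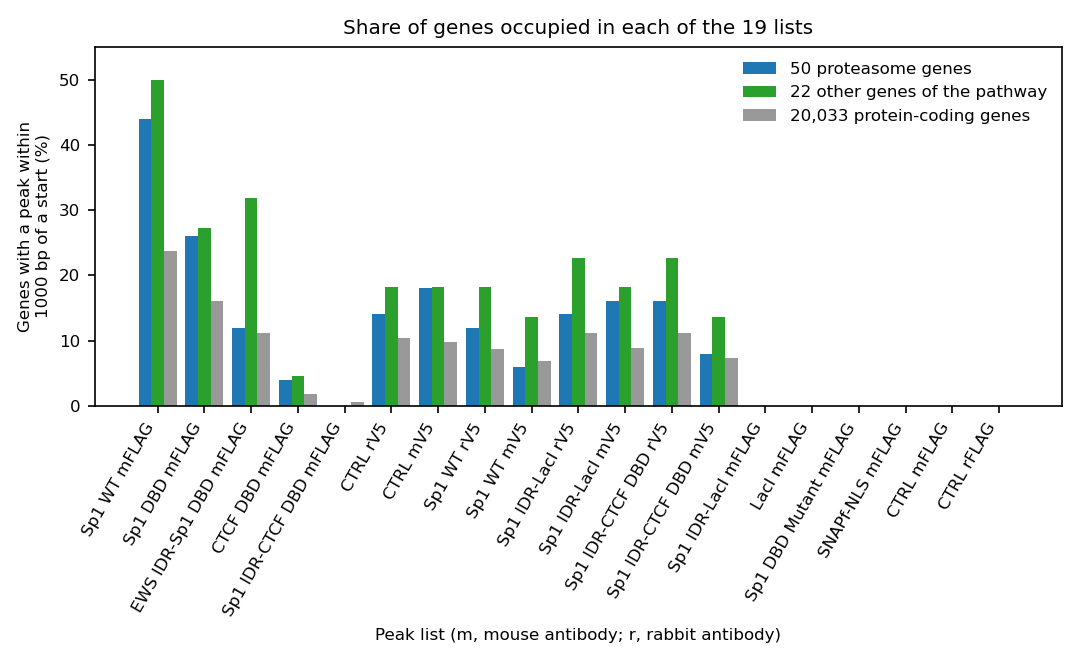
Percentage of the 50 members (blue), of 22 other genes of the proteasome pathway (green) and of the 20033 protein-coding genes (grey) with a peak within 1000 bp of a transcript start in each of the 19 lists. Sp1 WT has the highest bars, 44%, 50.0% and 23.7%, and the 6 FLAG lists at the right, from Sp1 IDR-LacI to CTRL, show no visible bar.

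Endogenous Sp1 occupied fewer members than the FLAG-tagged full-length protein, in shorter lists made with other antibodies. In CTRL cells the rabbit anti-V5 list held 7 members (14%, background 10.4%) and the mouse list 9 (18%, background 9.75%), with PSMB10, PSMC6, PSMD8, PSME1 and PSME2 in both. In cells with Sp1 WT the counts were 6 (rabbit, 12%, background 8.66%) and 3 (mouse, 6%, background 6.81%). In cells with Sp1 IDR-LacI they were 7 (rabbit, 14%, background 11.1%) and 8 (mouse, 16%, background 8.80%). In cells with Sp1 IDR-CTCF DBD they were 8 (rabbit, 16%, background 11.1%) and 4 (mouse, 8%, background 7.34%). The share of members was below the background in the Sp1 WT mouse list alone. The anti-V5 lists also differed in length, from 1332 peaks (Sp1 WT, mouse, with the fewest members) to 2172 (Sp1 IDR-CTCF DBD, rabbit). The Sp1 WT anti-FLAG list held 5151 peaks. Over the 8 anti-V5 lists, 14 members were found at least once (28.0%, background 15.1%). Of these, 13 (92.9%) were members of the Sp1 WT FLAG list, compared with 82.1% of all genes found in an anti-V5 list. PSMB9 is among the 13, but its anti-V5 peak lay at the promoter shared with TAP1 and its Sp1 WT peak at PSMB8. Differences between lines cannot be set against a spread, because no list has a replicate.

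The constructs with CTCF zinc fingers, which recognize the motif of the insulator protein CTCF, reached few members. CTCF DBD occupied PSMB9 and PSMG3, an assembly factor found in no other list (2 of 50, 4%, against 1.88%). The PSMG3 peak (chr7:1570110-1570571) ranked 263 of 649, with −log10 p-values of 11.0 and 16, and its summit was 211 bp upstream of the canonical start. Sp1 IDR-CTCF DBD occupied none (background 0.574%). Both lists had a peak between PSME1 and PSME2 that missed the limit of 1000 bp, 1977 bp from the nearest PSME2 start for CTCF DBD (rank 318 of 649) and 2040 bp for Sp1 IDR-CTCF DBD (rank 38 of 166). The windows around the CTCF DBD summits at PSMB9 and PSMG3 are shown (100 bases on either side of the summit, plus strand, hg38). Neither window held GGGCGG or the CTCF core motif on either strand. The core was searched as a single strict pattern of letters, so other forms of the CTCF motif were not looked for.
PSMB9, chr6:32853800-32854000, plus strand: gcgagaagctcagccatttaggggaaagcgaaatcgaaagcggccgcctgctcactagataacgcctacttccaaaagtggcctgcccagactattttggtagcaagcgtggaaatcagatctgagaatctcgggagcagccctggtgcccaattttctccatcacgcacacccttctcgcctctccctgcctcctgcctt
PSMG3, chr7:1570143-1570343, plus strand: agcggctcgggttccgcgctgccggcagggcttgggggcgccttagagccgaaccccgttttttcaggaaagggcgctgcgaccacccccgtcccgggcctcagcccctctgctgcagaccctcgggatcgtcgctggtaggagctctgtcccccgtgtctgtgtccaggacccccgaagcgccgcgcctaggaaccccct
The absence holds for these windows alone: the RefSeq promoter window of PSMB9, which lies under the same peak, held 2 GGGCGG matches. It says nothing about how the construct reached the sites. Of all 322 CTCF DBD peaks at a protein-coding start, 12 held the CTCF core and 140 (43.5%) held GGGCGG within 100 bp of the summit.

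The remaining 6 FLAG lists (Sp1 IDR-LacI, LacI, Sp1 DBD Mutant, SNAPf-NLS and both FLAG antibodies in CTRL cells) held 22 to 295 peaks, and no member was occupied in any of them. Sp1 IDR-LacI and Sp1 DBD Mutant are Sp1 constructs rather than controls, and the paper reports that both colocalized with Sp1 in live cells. Across all genes the share was 0.00499% (1 gene) for Sp1 IDR-LacI and 0% for the other 5. With so few genes reached, these lists allow no comparison among members.

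The strength of the members' peaks relative to other promoter peaks differed between lists. The 21 Sp1 WT peaks at members had a median rank of 49% of the list, against 48.1% for all 4077 peaks at protein-coding starts, and a median width of 718 bp against 985 bp. Members' median rank was also near that of promoter peaks for EWS IDR-Sp1 DBD (44.6% against 48.1%) and CTRL with the rabbit antibody (46.7% against 48.8%). It was lower in strength for Sp1 DBD (63.4% against 49.1%) and in the other 7 anti-V5 lists, from 58.3% against 48.8% (Sp1 IDR-CTCF DBD, rabbit) to 86.1% against 49.8% (Sp1 IDR-CTCF DBD, mouse, 4 peaks). In the 2 CTRL lists the median widths were 465 bp against 629 bp (rabbit) and 419 bp against 668 bp (mouse). Between replicates, Spearman's rho of the −log10 p-values was 0.781 over the 21 Sp1 WT peaks, 0.753 over 13 Sp1 DBD peaks, 0.371 over 6 EWS IDR-Sp1 DBD peaks, 0.786 over 7 CTRL rabbit peaks and 0.300 over 9 CTRL mouse peaks, each over peaks of the same libraries. The second replicate had the larger −log10 p-value at 20 of the 21 Sp1 WT peaks. Of the 22 member genes, 19 had the Sp1 WT summit within 200 bp of a transcript start, and 20 had it upstream of the canonical start. The limit of 1000 bp did not divide close cases in this list: the farthest peak inside it, at PSMB3, ended 5 bp from a start, and the nearest outside, at PSMB11, was 6715 bp away.

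**Figure D4:**
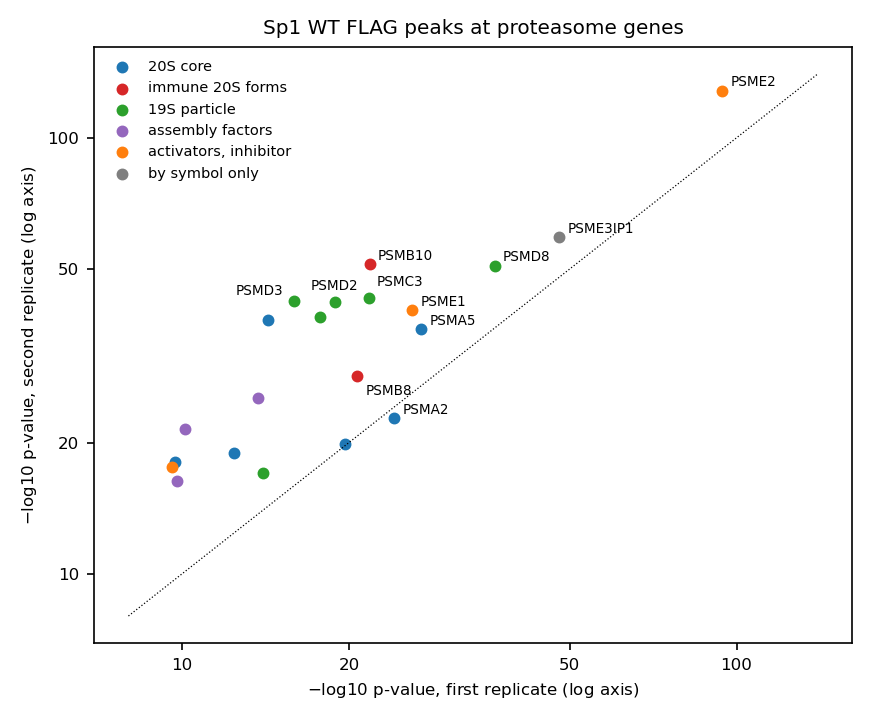
−log10 p-values of the 21 Sp1 WT FLAG peaks at members in the first (x axis) and second (y axis) replicate given to the reproducibility analysis, both on log axes, colored by subcomplex; the dotted line marks equal values. PSME2 stands apart at 94.3 and 128.3, and PSMA2 is the single peak below the line.

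GC boxes were counted in the promoter sequences. A RefSeq promoter sequence (GRCh38.p14, 250 bases before to 50 after the start) was found for 44 of the 50 members and for 15345 protein-coding genes in all; PSMA7, PSMB1, PSMB6, PSMB7, PSMD4 and PSMG3 had none in the table used. GGGCGG was present on either strand in 30 of the 44 (68.2%, against 59.2% of all promoters), in 16 of 21 occupied by Sp1 WT (76.2%) and in 14 of 23 not occupied (60.9%). Among all promoters the shares were 80.5% of occupied and 52.2% of unoccupied ones, a wider gap than among the members. Split at 2 matches, a limit chosen after the counts were seen, Sp1 WT occupied 14 of 19 members with 2 or more (73.7%) and 7 of 25 with fewer (28.0%), against 38.5% and 16.8% of all promoters. For Sp1 DBD the figures were 9 of 19 (47.4%) and 4 of 25 (16%), against 28.9% and 9.64%. EWS IDR-Sp1 DBD occupied 6 of 19 (31.6%) and 0 of 25, against 19.6% and 6.58%. The RefSeq window and the peak were not always the same place: of the 21 matched members occupied by Sp1 WT, 18 had the window under a peak, and PSMB9, PSMB10 and PSMF1 did not.

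**Figure D5:**
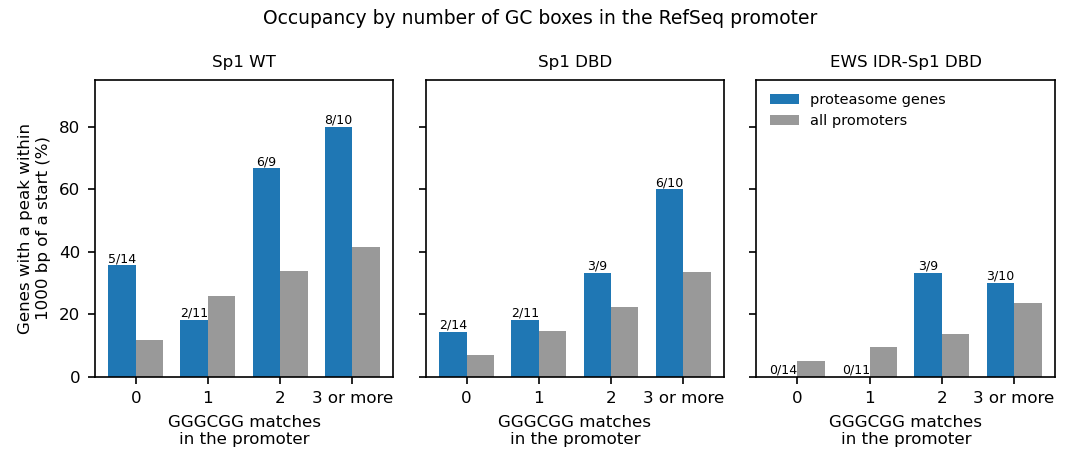
Percentage of genes with a peak within 1000 bp of a start, by number of GGGCGG matches (either strand) in the 300-base RefSeq promoter, for the 44 members with a sequence (blue, with occupied and total counts) and for all 15345 promoters (grey), in 3 FLAG lists. In the Sp1 WT panel the members rise from 5 of 14 with no match to 8 of 10 with 3 or more, by way of 2 of 11 with a single match.

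Some members departed from this pattern. PSMD1, a scaffold of the 19S base, held 3 matches and was in no list, like PSMA4 and PSMC5 with 2 each, whereas PSMB10, PSMB5, PSMD3, PSMD8 and PSMF1 held none in the RefSeq window and were occupied by Sp1 WT. Of these 5, PSMB10, PSMD8 and PSMF1 had 2 matches within 100 bp of the Sp1 WT summit, and PSMB5 and PSMD3 had none there either. PSMD1 and PSMB4, a beta subunit with no match, are shown as contrasting promoters in no list (250 bases before the RefSeq start, strand of the gene, GRCh38.p14, GGGCGG or CCGCCC in capitals). The longer run of capitals in PSMD1 holds overlapping matches.
PSMD1, chr2:231056617-231056866, plus strand: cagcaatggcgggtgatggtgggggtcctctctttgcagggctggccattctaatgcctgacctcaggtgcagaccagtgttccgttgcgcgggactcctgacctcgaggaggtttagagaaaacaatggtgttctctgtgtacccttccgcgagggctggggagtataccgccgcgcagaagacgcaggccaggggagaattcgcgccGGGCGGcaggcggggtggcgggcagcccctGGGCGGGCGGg
PSMB4, chr1:151399323-151399572, plus strand: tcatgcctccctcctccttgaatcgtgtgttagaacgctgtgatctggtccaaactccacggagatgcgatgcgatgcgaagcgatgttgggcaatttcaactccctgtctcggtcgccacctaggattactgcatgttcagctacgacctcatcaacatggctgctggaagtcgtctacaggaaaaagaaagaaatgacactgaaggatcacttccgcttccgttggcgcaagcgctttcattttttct
Around the summits, GGGCGG lay within 100 bp of 18 of the 21 Sp1 WT peaks at members (85.7%), against 75.1% of all promoter peaks of that list. The exceptions were PSMB1, PSMB5 and PSMD3. In the Sp1 DBD list 12 of 13 member peaks had it (92.3%, against 77.9%), in the EWS IDR-Sp1 DBD list 4 of 6 (66.7%, against 78.7%), and in the CTRL lists 7 of 7 (rabbit, against 84.8%) and 8 of 9 (mouse, against 86.6%).

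3 other promoter motifs were searched in the same windows. TGACNNNGC, the core of the antioxidant response element to which NFE2L1 binds, was in 13 of 44 member promoters (29.5%) and in 14.3% of all promoters. It was in 7 of 21 members occupied by Sp1 WT (33.3%) and 6 of 23 not occupied (26.1%). CCGGAAG, a core of ETS-factor sites, was in 14 of 44 (31.8%, against 14.4% of all), in 4 of the 21 occupied (19%) and in 10 of the 23 not occupied (43.5%), whereas among all promoters it was in 17.3% of occupied and 13.4% of unoccupied ones. CCAAT, the box bound by NF-Y, was in 21 of 44 (47.7%, against 36.6%), with 47.6% of occupied and 47.8% of unoccupied members. Median GC content was 62% in both classes of members, against 66.7% for all occupied and 61.3% for all unoccupied promoters. Every motif was searched on both strands, matches of different motifs can overlap, and a match is a description of letters, not of a bound site.

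The annotation bears on the comparison with all genes in a pair of ways. Members had more annotated starts (median 8) than protein-coding genes as a whole (median 5), although all genes occupied by Sp1 WT also had a median of 8. More members had a start of another protein-coding gene within 1000 bp (18 of 50, 36.0%, against 23.3%). Sp1 WT occupied 9 of these 18 (50.0%) and 13 of the other 32 (40.6%), against 36.3% and 19.9% of all genes. For Sp1 WT the share of members was above that of all genes in each class, and also with canonical transcripts alone (42.0% against 21.3%). For Sp1 DBD the share of members was 44.4% against 24.4% with such a neighbor, and 15.6% against 13.5% without. In the CTRL rabbit anti-V5 list it was 22.2% against 19.1% with such a neighbor, and 9.38% against 7.81% without. In the CTRL mouse anti-V5 list it was 16.7% against 17.6% with such a neighbor, and 18.8% against 7.38% without. Whether the annotation accounts for the difference between members and all genes was not tested.

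Genes that act with the proteasome but lie outside the symbol rule were read from a list of 22. Sp1 WT occupied 11 (50.0%, background 23.7%), Sp1 DBD 6 (27.3%, background 16.1%), EWS IDR-Sp1 DBD 7 (31.8%, background 11.1%) and CTCF DBD 1 (4.55%, background 1.88%). The anti-V5 lists held 3 to 5 each (13.6% to 22.7%, background 6.81% to 11.1%). The 11 included NFE2L1 and the genes of its activation, the deglycosylase NGLY1, the protease DDI2 and the ATPase VCP, together with NFE2L2, ADRM1 (a ubiquitin receptor of the 19S particle), PAAF1, AKIRIN2 (nuclear import of proteasomes), UBQLN4, ZFAND5 and MIDN. DDI2 and RAD23B, a shuttle factor that delivers substrates, were in all 8 anti-V5 lists, and RAD23B was not in the Sp1 WT FLAG list. ADRM1 was the 1 gene of this list occupied by CTCF DBD. Genes of this list found in no peak list included POMP, SEM1, UCHL5, USP14, ECPAS, TXNL1, UBE3C, UBQLN1 and UBQLN2.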

How the data were processed

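CUT&RUN was profiled in 38 samples, 2 replicates for each pairing of a line with an antibody (19 pairings), grouped by their labels. The submitters' processing notes name Cutadapt 2.6 for trimming, Bowtie2 2.3.5.1 for alignment (hg38), SAMtools 1.9, bedtools 2.27.1, deepTools 3.5.4 and MACS3, given as 2.2.7.1, with which the authors called peaks per replicate. Peaks of both replicates were then merged into 1 list by their irreproducible discovery rate, which shares the abbreviation IDR with the disordered regions in the construct names. The deposited lists give −log10 p-values of the merged peak and of its source peak in either replicate, and a score and −log10 values of the discovery rate. Read depth is not in the lists, so −log10 p-values were compared only as ranks within a list. The 6 tables of differential regions hold the authors' own comparisons (log10 likelihood ratios) and were not used.

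Peaks were joined to GENCODE 44 transcript starts of protein-coding genes in Python 3.11.15 with pandas 2.3.3 and numpy 2.4.6, and plotted with matplotlib 3.10.9. The join was tested on simulated data. Genes were named by the symbol rule with every member accounted for. Subcomplexes and the list of 22 pathway genes were set from textbook knowledge. Members and lists were chosen with earlier results of these data known. No test was made, because each list merges its replicates. Alternatives were the distance, the transcripts, the discovery rate, each replicate's own peak coordinates, list length, removal of peaks found in controls, and assignment to the nearest start.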

Additional observations from a re-analysis of the deposited data

How the results depend on the processing

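Of 88 alternative values for 8 counts, 73 stayed within 1.5 times the reported count and 15 did not. The 73 include settings with little room to differ, which left all 8 counts as they were. Each replicate's own coordinates re-read peaks already called in both replicates. Removal of control peaks used SNAPf-NLS and CTRL mouse anti-FLAG lists, which reached no protein-coding start. At a discovery rate of at most 0.01, the members occupied fell to 12 for Sp1 WT, 5 for Sp1 DBD, 2 for EWS IDR-Sp1 DBD, 0 for CTCF DBD, 4 for CTRL rabbit anti-V5, 4 for CTRL mouse anti-V5, and 6 for any anti-V5 list. At equal list length they were 12 for Sp1 WT, 8 for Sp1 DBD and 0 for CTCF DBD. With a limit of 5000 bp, CTCF DBD reached 5 and Sp1 IDR-CTCF DBD 3. With the gene of the nearest start alone, EWS IDR-Sp1 DBD had 3 (6% of members against 9.37% of all genes), CTCF DBD 1 and CTRL rabbit anti-V5 4 (8% against 8.33%), so in these EWS IDR-Sp1 DBD and CTRL lists the members' share was then below that of all genes. The share of members exceeded that of all genes for Sp1 WT in 12 of 12 settings, counting the main one. These settings all draw on the same peaks, and several keep fewer or more of them by construction.

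No paired analysis was possible because each list merges both replicates and no test was made. Leaving out a replicate was not possible for the same reason, and each replicate's own peak coordinates were used instead. Unknown depth limits every count, and a gene in no list was not shown to be unbound.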
